A study of Mus musculus with 12 samples.

Results

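These regions are stretches of chromatin that carried a listed peak of acetylated histone H4 (H4ac) in all 3 libraries of C2C12 cells with an MLX-DN construct, and had no peak of any library of C2C12 cells with an MLX-WT construct on them or within 1000 bp of either edge. They number 1407 of the 31891 regions obtained by merging the peaks of all 6 H4ac lists where they overlapped or touched. C2C12 is an established line of mouse myoblasts, the dividing precursors that fuse into muscle fibres. Both groups were transduced with lentivirus, one carrying MLX-WT and the other MLX-DN. DN is not spelled out in the labels, whose description field has MLX down for this group; the names of the peaks carry a tag for the presence of glucose in both groups. Each group had 3 H4ac libraries, made with 1 lot of a rabbit antibody and accompanied by input chromatin. The expression of the constructs, the number of clones and the state of the endogenous gene are not stated, nor is whether replicates were separate cultures, in the labels.

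MLX is a basic helix-loop-helix leucine zipper protein that pairs with MondoA or ChREBP, and the pairs bind carbohydrate response elements and switch on genes in response to glucose metabolites. Acetylation of the histone H4 tail loosens chromatin and recruits bromodomain proteins, and it is found at active promoters, at enhancers and over parts of transcribed genes. In myoblasts such acetylation accompanies the opening of muscle genes by the MyoD family. Positions below are on mm9, with the first base as 1. No gene, exon or base sequence was assigned to them, because the gene and promoter tables at hand are on GRCm38, a later build, and coordinates were not carried between builds. The cell type was for the same reason not checked at marker genes.

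The regions were chosen by presence in the lists, that is, by the authors' q, so the number of regions and the MLX-DN values in them are descriptions without a test. The 1407 regions are 4.41% of all union regions and 15.4% of the 9119 regions that all 3 MLX-DN libraries listed. Of those 9119, another 538 were in no MLX-WT list but had an MLX-WT peak within 1000 bp, 4067 were listed by 1 or 2 MLX-WT libraries, and 3107 by all 6 libraries. The mirror rule (all 3 MLX-WT libraries, no MLX-DN library and no MLX-DN peak within 1000 bp) found 32 regions, 0.100% of the union and 0.900% of the 3556 regions listed by all 3 MLX-WT libraries. List length moves with these counts. In the order of replicates 1 to 3 the MLX-DN lists were 15201, 24811 and 16898 peaks long, and the MLX-WT lists had lengths of 5385, 13652 and 9422. When each list was reduced to its 5385 strongest peaks, the rule found 186 regions, and 46 of the 1407 overlapped one of them. Leaving out 1 library removes a condition of the rule, so a higher count then follows partly by construction. The rule found 2779, 1773 and 2339 regions without MLX-DN replicates 1, 2 and 3. Without MLX-WT replicates 1, 2 and 3 it found 1511, 2582 and 1756. Between 97.7% and 100% of the 1407 were found again each time.

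H4ac in these regions was of middle strength for the MLX-DN libraries. The fold is the authors' ratio of ChIP reads to control background at the peak's summit, and where a library had several peaks in a region the one with the best q was taken. In MLX-DN replicate 1 the fold ran from 1.84 to 8.64 with a median of 3.86. In replicate 2 it ran from 2.03 to 9.76 with a median of 4.26, and in replicate 3 from 1.90 to 9.36 with a median of 3.70. Medians of the libraries thus averaged 3.94 ± 0.289 (SD, n = 3), against 4.71 ± 0.611 in the same libraries at regions listed by all 6. By −log10 q the median rank was the 43.6th, 56.9th and 47.1st percentile of the lists of replicates 1, 2 and 3. At regions listed by all 6 libraries it was the 84.3rd, 90.1st and 85.4th. In 28 regions all 3 MLX-DN peaks ranked in the top 25% of their lists, and in 694 at least 1 of them ranked in the bottom 25%. The weakest of the 3 peaks had a −log10 q under 2, close to the end of the lists at 1.31 to 1.35, in 65 regions, and of at least 5 in 561 (39.9%).

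Fold and p of each peak gave back its ChIP reads and its control background, as described under processing. The regions had a median of 28, 31 and 31 ChIP reads at the summit in MLX-DN replicates 1, 2 and 3, over a control background of 6.0, 5.25 and 7.0 reads. The lowest counts were 14, 16 and 15 reads and the highest 90, 98 and 94. Expressed as a multiple of the library's genome-wide ChIP level, the median was 8.38, 7.95 and 8.55. The mean of these was 8.29 ± 0.309 (SD, n = 3). Regions with an MLX-WT peak within 1 kb stood at 8.66 ± 0.182, those listed by 1 or 2 MLX-WT libraries at 11.1 ± 0.268 and those listed by all 6 at 14.6 ± 0.266 in the same MLX-DN libraries. The order of these classes held in each MLX-DN library. The control background followed the same order on average. Its median was 1.87 ± 0.257 times the genome-wide control level in the 1407 regions, 1.93 ± 0.204, 2.48 ± 0.331 and 2.97 ± 0.477 in the 3 other classes.

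**Figure D1:**
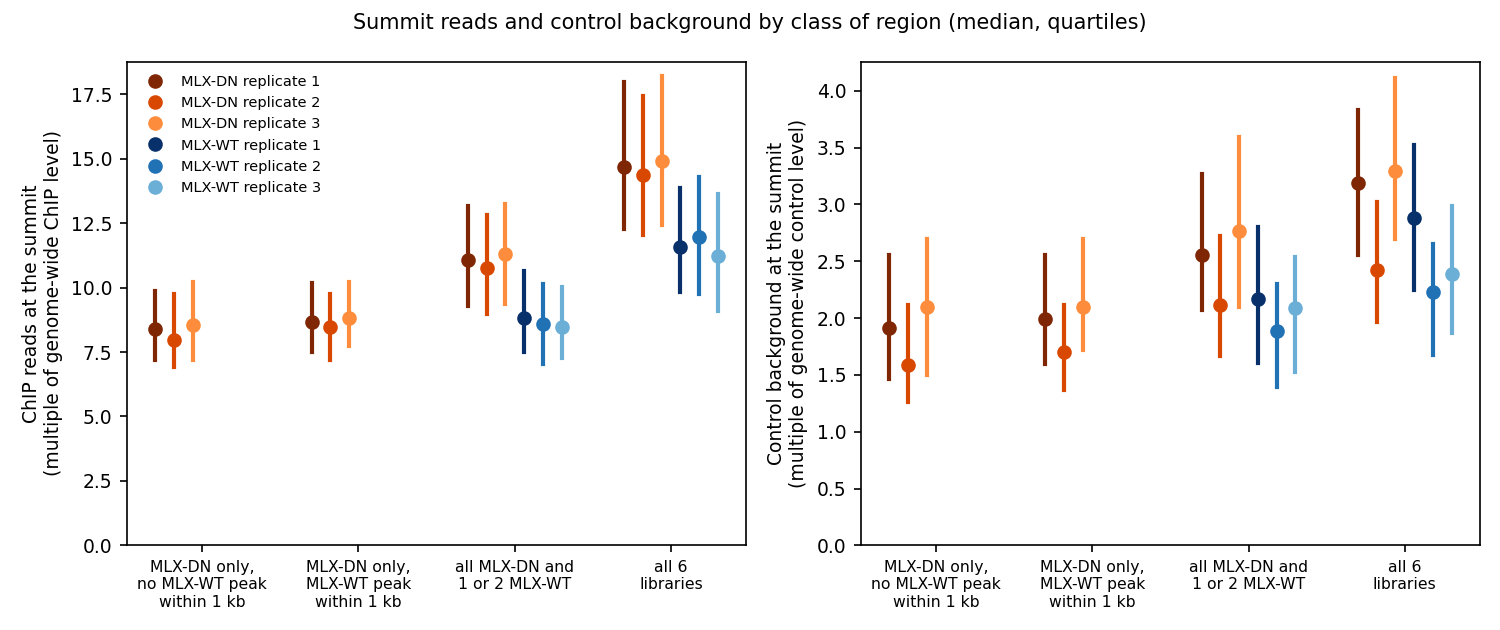
ChIP reads at the summit (left) and control background there (right), each as a multiple of the library's genome-wide level, for 4 classes of region listed by all 3 MLX-DN libraries. Points are medians and bars the range between quartiles, with orange for MLX-DN and blue for MLX-WT libraries; the first 2 classes have no MLX-WT peak to measure. The first class has medians of 7.95 to 8.55 on the left, the lowest of the 4 in each MLX-DN library.

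The regions were compact. Their width ran from 314 to 3600 bp with a median of 666 bp, and 236 (16.8%) were wider than 1 kb. The median was 672 bp where an MLX-WT peak lay within 1 kb, 762 bp in regions listed by 1 or 2 MLX-WT libraries and 976 bp in those listed by all 6, of which 48.3% were wider than 1 kb. Since a union region grows with every library that lists it, widths of classes with more libraries are larger partly by construction. The 3 MLX-DN summits lay a median of 145 bp apart from the first to the last, and within 100 bp of each other in 469 regions (33.3%). At regions listed by all 6 libraries, the summits of the same 3 libraries lay a median of 94 bp apart. The folds of the 3 MLX-DN libraries ranked the regions only weakly alike. Spearman's rho across the 1407 regions was 0.153 for replicates 1 and 2, 0.201 for 1 and 3 and 0.160 for 2 and 3. In the same order it was 0.229, 0.241 and 0.201 across the 538 regions with an MLX-WT peak within 1 kb. Across the 4067 of 1 or 2 MLX-WT libraries it was 0.220, 0.260 and 0.216. It was 0.378, 0.385 and 0.359 across the 3107 regions of all 6 libraries. Whether the range of folds within a class plays a part was not tested. The highest fold was within 1.5 times the lowest in 761 regions (54.1%), against 58.0% of the 538, 49.3% of the 4067 and 47.0% of the 3107. MLX-DN replicate 2, the longest list, gave the highest of the 3 folds in 664 regions, replicate 1 in 384 and replicate 3 in 359. Replicate 2 gave it most often in the other classes too, in 278 of the 538, 2361 of the 4067 and 1896 of the 3107.

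How the MLX-WT signal compared in these regions was not measured, because the lists hold no value where no peak was called. The MLX-DN level can only be set against a calculated limit, which takes its control background from MLX-DN. At the control background measured in the MLX-DN cells, a summit needed a median of 19 ChIP reads to reach the smallest −log10 p of the list of MLX-WT replicate 1, and 20 and 17 reads for replicates 2 and 3. With the mean MLX-DN level, scaled to the depth of each MLX-WT library, 1406 of the 1407 regions would have reached this in all 3 MLX-WT lists (99.9%, exact 95% interval 99.6 to 100, counting error only). With the lowest of the 3 MLX-DN levels, 1350, 1387 and 1386 would have reached it in MLX-WT replicates 1, 2 and 3. The mean MLX-DN level was a median of 1.54 times the highest count that misses the threshold of MLX-WT replicate 1, 1.68 times that of replicate 2 and 1.67 times that of replicate 3. It was at least 2 times the limit of every MLX-WT library in 70 regions (4.98%), and the largest such ratio was 3.11. Most regions therefore carry a calculated ratio under 2 and not a measured fold between the groups. It is no bound on the difference between the groups, since the MLX-WT control background in these regions is not known. A higher one would raise the reads needed. The rule chose regions that passed in all 3 MLX-DN lists, which by itself favours high MLX-DN counts. A share near 100% was thus largely set by the choice of regions.

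Where both groups listed a region, the read level of MLX-DN stood above that of MLX-WT too, while the authors' folds overlapped. At regions of all 6 libraries the MLX-DN lists had median folds of 4.44, 5.41 and 4.28. Those of the MLX-WT lists were 3.82, 4.96 and 4.2, each in replicate order. At regions of all 6 libraries the mean MLX-DN summit level, over the genome-wide level, was a median of 1.26, 1.25 and 1.33 times that of MLX-WT replicates 1, 2 and 3, and the control background 1.07, 1.39 and 1.24 times. With reads and background of the 1407 regions lowered by these ratios, 1309 would have reached the threshold of all 3 MLX-WT lists (93.0%, exact 95% interval 91.6 to 94.3). With the reads alone lowered, 1211 would have (86.1%, 84.1 to 87.8). Both counts start from the MLX-DN reads the regions were chosen on, and their intervals cover counting error only. The calculation covers the summit only, while no listed peak was shorter than 250 bp, and it uses MLX-DN levels in place of MLX-WT reads. Without any lowering it put all 4067 regions of 1 or 2 MLX-WT libraries above the threshold in each MLX-WT list. Replicates 1, 2 and 3 listed 18.0%, 83.9% and 54.1% of them. Whether this difference came from lower MLX-WT reads or from the calculation was not tested.

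The region with the highest rank was on chromosome 9 from 119486632 to 119488491, and the nearest MLX-WT peak lay 98.2 kb away. It had 53, 68 and 66 ChIP reads at the summit in MLX-DN replicates 1, 2 and 3 over control backgrounds of 9.25, 9.0 and 9.75 reads, which are folds of 4.95, 5.87 and 5.75 (mean 5.52, SD 0.50, n = 3). At this background the summit would have needed 26, 26 and 23 reads to be listed in MLX-WT replicates 1, 2 and 3; the region was ranked on its MLX-DN q, so high MLX-DN counts follow from its choice. It was 1860 bp wide, and the 3 summits lay within 107 bp.

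Next in rank was the region on chromosome 5 from 108188658 to 108189321, 664 bp wide and 108 kb from any MLX-WT peak. It had 39, 72 and 67 reads and folds of 6.26, 7.76 and 8.96. Replicate 1 was the lowest of the 3, and the mean level was 3.11 times the highest of the MLX-WT limits, more than in any other of the 1407 regions. The region on chromosome 3 from 89383050 to 89383993 had 44, 59 and 54 reads and folds of 5.28, 6.38 and 5.49. An MLX-WT peak lay 14.7 kb from it.

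A chromosome 8 region, from 15730479 to 15731341, was the most remote of those ranking in the first 10, with the nearest MLX-WT peak 658 kb away. It had 38, 45 and 50 reads and folds of 6.11, 6.53 and 5.23. The region on chromosome 19 from 25501174 to 25502869 was 245 kb from an MLX-WT peak and had 35, 55 and 39 reads. Each MLX-DN library had 2 peaks in it, and the strongest summits lay 902 bp apart, so the libraries did not share 1 leading summit. A second region on chromosome 8, from 96702361 to 96702901, had 54, 66 and 58 reads over the high control backgrounds of 11, 10.5 and 12 reads, and folds of 4.30, 4.95 and 4.19. Its nearest MLX-WT peak was 5.91 kb away.

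The remaining 4 of the first 10 were on chromosomes 2, 1, 15 and 9. Positions 33199360 to 33201012 of chromosome 2 had folds of 4.70, 5.29 and 5.08, the closest agreement of these 4. On chromosome 1, from 157340532 to 157341611, the folds were 5.95, 7.12 and 8.92. The chromosome 15 region, from 25886956 to 25887846, showed folds of 6.84, 9.76 and 4.28. Its ChIP reads were 50, 61 and 50, over control backgrounds of 6.0, 4.4 and 10.0 reads. The last of them, on chromosome 9 and 414 bp wide, ran from 22193743 to 22194156 and had folds of 3.97, 6.80 and 4.61.

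**Figure D2:**
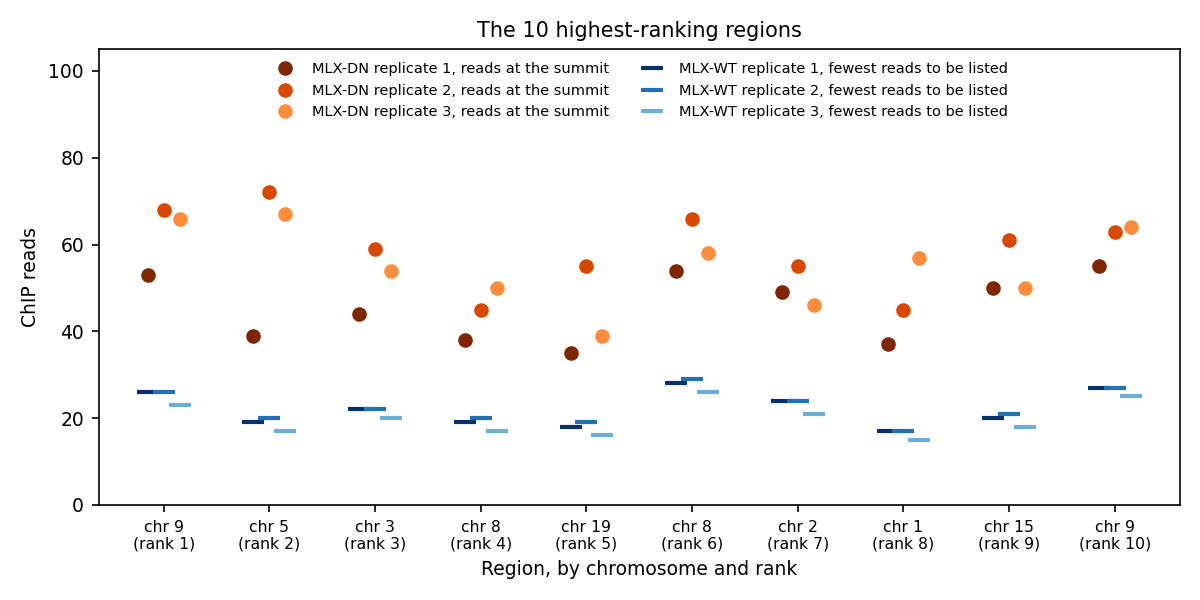
ChIP reads at the summit in the 3 MLX-DN libraries (orange points) for the 10 regions of highest rank, and the fewest reads that would have put the summit past the threshold of each MLX-WT list at the same background (blue dashes). The MLX-DN counts are not scaled for depth, and the regions were chosen by MLX-DN rank. No MLX-WT reads are plotted, since none are listed there; the points lie between 35 and 72 reads and the dashes between 15 and 29.

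The 5 widest regions held more than 1 peak in at least 1 MLX-DN library. The widest was on chromosome 5 from 135431484 to 135435083, 3600 bp, with 3, 2 and 2 peaks in MLX-DN replicates 1, 2 and 3 and folds of 4.41, 9.14 and 5.35. It had 5 further regions of the same kind within 50 kb, and the nearest MLX-WT peak was 22.8 kb away. A chromosome 11 region from 100150459 to 100153041 (2583 bp) had 2, 1 and 3 peaks, lay 1529 bp from an MLX-WT peak and had folds of 4.90, 5.89 and 5.65. The region on chromosome 15 from 78313322 to 78315824 (2503 bp) had 2 peaks in each library, with 56, 71 and 67 reads over the high backgrounds of 12.8, 9.0 and 15 reads. The remaining regions, on chromosome 4 from 136205020 to 136207511 and chromosome 15 from 101211024 to 101213459, were 2492 and 2436 bp wide with folds between 3.69 and 5.72. They held 3, 1 and 3 peaks and 2, 1 and 3 peaks.

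Some of the regions lay near one another. Another of the 1407 was within 50 kb of 644 of them (45.8%), and 143 had at least 3 others that close. No such share is given for other regions, and peaks were denser than over the genome around the other classes too, as given below. The grouping is therefore not shown to be particular to the 1407. The densest group was on chromosome 11, where 9 regions fell between 86395470 and 86466044, a span of 70.6 kb. The region in it from 86421834 to 86422641 had the even folds of 5.01, 5.03 and 4.47, while its neighbour from 86417616 to 86418666 had 5.83, 4.41 and 2.77. Within 75 kb of the centre of this group 26, 40 and 33 peaks were found in the MLX-DN lists, and 3, 7 and 4 in those of MLX-WT. These were 0.171%, 0.161% and 0.195% of the MLX-DN lists and 0.0557%, 0.0513% and 0.0425% of the MLX-WT lists. The neighbourhood was chosen for its number of MLX-DN regions. The MLX-DN counts include the peaks of the 9 regions themselves, where the rule bars MLX-WT peaks within 1000 bp. The contrast is therefore partly set by the rule. The next densest surroundings were those of a region on chromosome 8 from 46914562 to 46915484, with 7 others within 50 kb and folds of 7.03, 5.11 and 8.97.

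**Figure D3:**
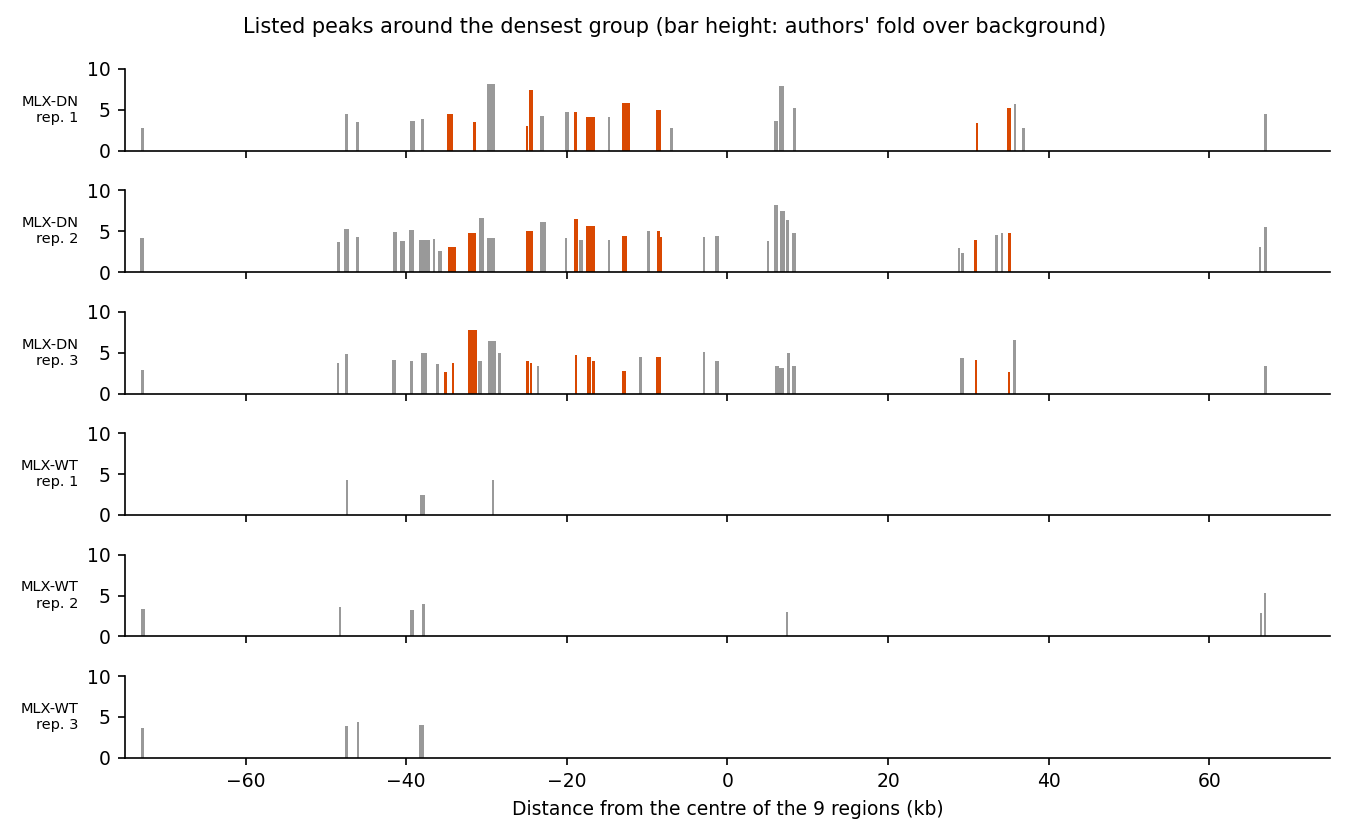
Listed peaks of the 6 H4ac libraries within 75 kb of the centre of the densest group, with the authors' fold over background as bar height and distance from the centre in kb on the horizontal axis. Orange bars are peaks of the 9 regions and grey bars all others; the MLX-WT rows hold 3, 7 and 4 peaks against 26, 40 and 33 in the MLX-DN rows. The rule bars MLX-WT peaks within 1000 bp of the 9 regions.

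The surroundings held acetylated sites of both groups, at positions the rule did not use. Summits 2 to 10 kb outside the regions' edges were counted per Mb and divided by the density of the same library over all 1 Mb bins that held a peak. In MLX-DN replicates 1, 2 and 3 this gave 5.21, 5.37 and 5.37 times the genome-wide density, and in MLX-WT replicates 1, 2 and 3 it gave 3.95, 4.09 and 3.84 times. The means were 5.32 ± 0.0951 and 3.96 ± 0.125 (SD, n = 3), and every MLX-DN library was above every MLX-WT library. MLX-WT peaks were thus also denser around the regions than over the genome, and the difference between the groups was 0.42 on the log2 scale. It is the same contrast and the same libraries as in the rule, so it has no test. On the 5 autosomes of overlapping control background described below, the log2 difference was 0.63.

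The excess narrowed with distance. At 2 to 5 kb the density was 6.30 ± 0.226 times the genome-wide value for MLX-DN against 4.31 ± 0.115 times for MLX-WT. At 10 to 20 kb it was 3.19 ± 0.117 against 2.59 ± 0.0356, and at 50 to 100 kb 1.84 ± 0.0505 against 1.89 ± 0.0694. Around regions listed by 1 or 2 MLX-WT libraries the density at 2 to 10 kb was 3.09 ± 0.226 for MLX-DN against 2.76 ± 0.215 for MLX-WT, and the groups overlapped. Around regions of all 6 libraries it was 2.87 ± 0.220 and 1.93 ± 0.679. There the MLX-WT libraries spread widely, with 1.19 in replicate 1, 2.53 in replicate 2 and 2.06 in replicate 3. Around the 538 regions with an MLX-WT peak nearby it was 8.37 ± 0.132 and 6.28 ± 0.216. The log2 difference was 0.42 there, 0.16 around regions of 1 or 2 MLX-WT libraries and 0.64 around those of all 6. The genome-wide density counts peaks inside the regions, which the surroundings leave out. Regions of all 6 libraries held at least 3107 peaks in lists of 5385 to 13652 (MLX-WT) and 15201 to 24811 peaks (MLX-DN). This lowers the MLX-WT values more, so the 0.64 arises partly by construction. A higher relative density in MLX-DN was also seen around the 538, so it was not limited to the surroundings of the 1407.

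**Figure D4:**
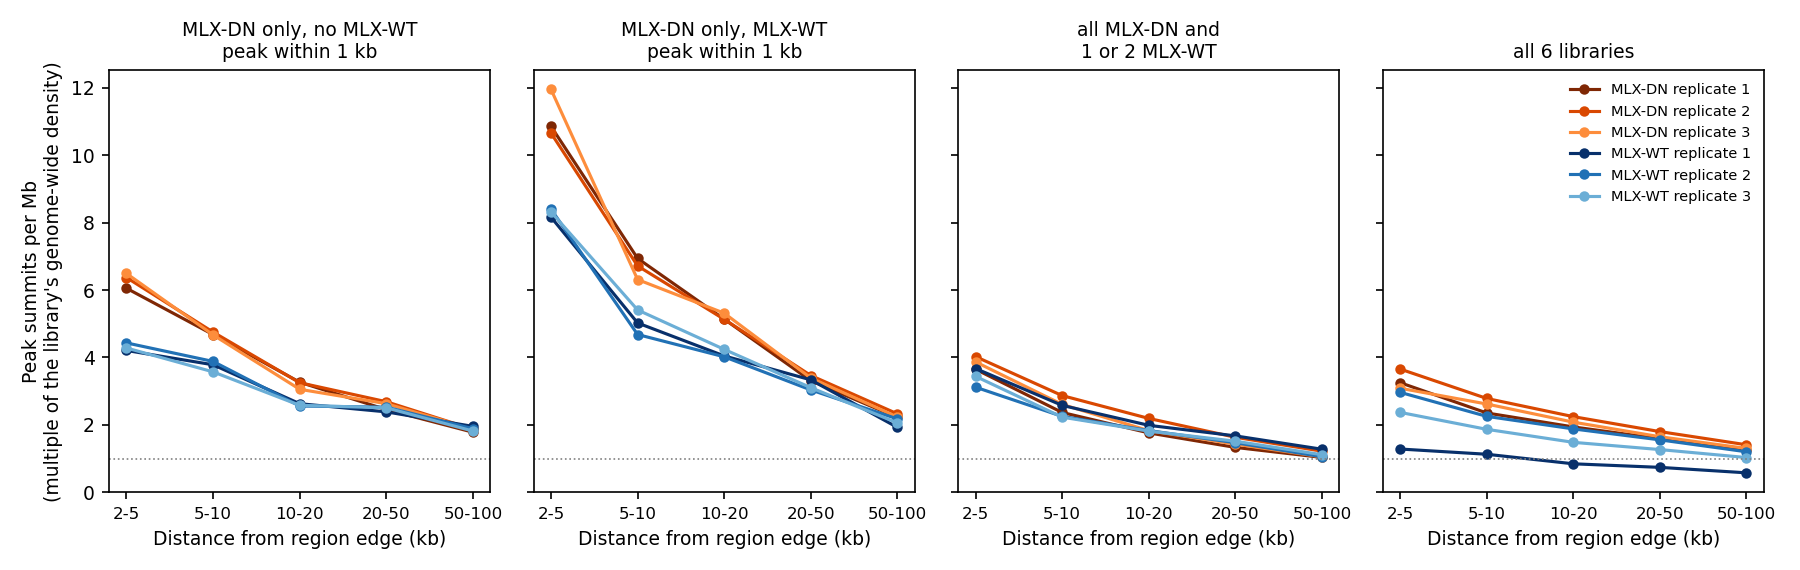
Density of peak summits by distance from the region's edge, as a multiple of each library's genome-wide density, around, from left to right, the 1407 regions, the 538 that had an MLX-WT peak nearby, regions listed by 1 or 2 MLX-WT libraries and regions of all 6 libraries. Each line is 1 library, orange for MLX-DN and blue for MLX-WT; in the first panel the groups are apart at 2 to 5 kb, at 6.30 and 4.31 on average, and together at 50 to 100 kb, at 1.84 and 1.89.

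The distance to the nearest MLX-WT peak ranged widely, above the lower limit of 1 kb that the rule sets. The nearest MLX-WT peak lay a median of 21.0 kb away, with quartiles of 5.94 and 60.6 kb and a largest distance of 1733 kb. It was more than 10 kb away for 926 regions (65.8%) and more than 100 kb away for 214 (15.2%). No such distance is given for other regions, so these values do not set the 1407 apart. MLX-WT peaks were denser around the 1407 than over the genome, as given above. A region of all 6 libraries lay within 10 kb of 141 (10.0%) of the 1407, against 33.5% of the 538 that had an MLX-WT peak nearby and 18.3% of the 4067 listed by 1 or 2 MLX-WT libraries. These shares follow in part from the rule, which bars a region of all 6 libraries within 1 kb of the 1407, while the 538 were defined by a nearby MLX-WT peak. The median distance to a region of all 6 libraries was 117 kb, 40.1 kb and 81.7 kb in these classes.

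Regions on both sides of the 1000 bp limit had folds in overlapping ranges. The first beyond it, on chromosome 11 from 70005243 to 70005750, was 1001 bp from an MLX-WT peak and had folds of 3.76, 3.96 and 4.59. The next was on chromosome 16 from 44239392 to 44240128, at 1002 bp, with folds of 3.61, 4.02 and 3.57. The third, on chromosome 5 from 149806075 to 149806781, was at 1009 bp and had folds of 3.88, 5.09 and 3.11. Of those just inside the limit, and so left out, the first was on chromosome 5 from 35967888 to 35968556, at exactly 1000 bp, with folds of 3.17, 3.84 and 2.70. A region on chromosome 15 from 36419322 to 36419788, at 999 bp, had folds of 3.49, 2.93 and 3.14. Another, on chromosome 4 from 66490020 to 66490803, at 996 bp, had folds of 4.10, 5.16 and 5.45.

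The regions were unevenly spread over the chromosomes. Chromosome 9 held 114 of them, 4 held 113, 1 held 110, 5 held 101 and 8 held 100, while 18 held 32 and X held 15. As a share of what all 3 MLX-DN libraries listed on the same chromosome, chromosome 9 had 22.5% (exact 95% interval 19 to 26.4) and chromosome 15 had 9.21% (6.91 to 12). On X the share was 26.8%, of 56 regions, with the wide interval of 15.8 to 40.3.

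The control background of the groups differed along with this share. At regions of all 6 libraries, and relative to the library's mean over autosomes, control background on chromosome 9 was 1.01 ± 0.0251 (MLX-DN) and 0.840 ± 0.0157 (MLX-WT), and on chromosome 15 it was 1.14 ± 0.0240 and 1.45 ± 0.0309 (SD, n = 3). On 7 autosomes (1, 3, 4, 5, 8, 9 and 12) every MLX-DN library had a higher control background than every MLX-WT library, by 1.13 to 1.26 times on average. These held 696 of the 1407 regions, 19.7% of what all 3 MLX-DN libraries listed there (exact 95% interval 18.4 to 21.0). On the 7 autosomes where every MLX-WT library was higher (6, 10, 11, 14, 15, 18 and 19) the share was 11.2% (10.1 to 12.3), for 353 regions. On the 5 where the libraries overlapped (2, 7, 13, 16 and 17) it was 14.5% (13.1 to 16.0), for 343 regions. By chromosome these 5 ran from 11.5% to 18.7%, which reached into the 17.9% to 22.5% of the first 7. The binomial intervals cover counting error only and treat regions as independent. Many regions lie near one another, however, and all come from the same 6 libraries. The 3 sets of autosomes were formed from the same lists, so the intervals are no test between them. Across the 19 autosomes Pearson's r between the control ratio and the share was 0.838 and Spearman's rho 0.812, a description over chromosomes that share the same 6 libraries. Chromosome X, left out of this relation, went the other way: its control ratio was 0.861, with every MLX-WT library higher, beside its share of 26.8%. That ratio rests on only 11 regions of all 6 libraries, against 98 to 312 on the autosomes, and the share on 15 regions. Of the 10 regions of highest rank, 7 were on autosomes with the higher control background in MLX-DN, 2 on those with the lower and 1 on those that overlapped.

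With reads and background of each region divided by its chromosome's control ratio, 1405 of the 1407 reached the threshold of all 3 MLX-WT lists, and 61 stood at least 2 times above every limit. Unadjusted, the calculation already put all 4067 regions of 1 or 2 MLX-WT libraries past the threshold in lists that lack many of them, so this count does not separate listed from unlisted regions. The part of control background in the listing was not tested.

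**Figure D5:**
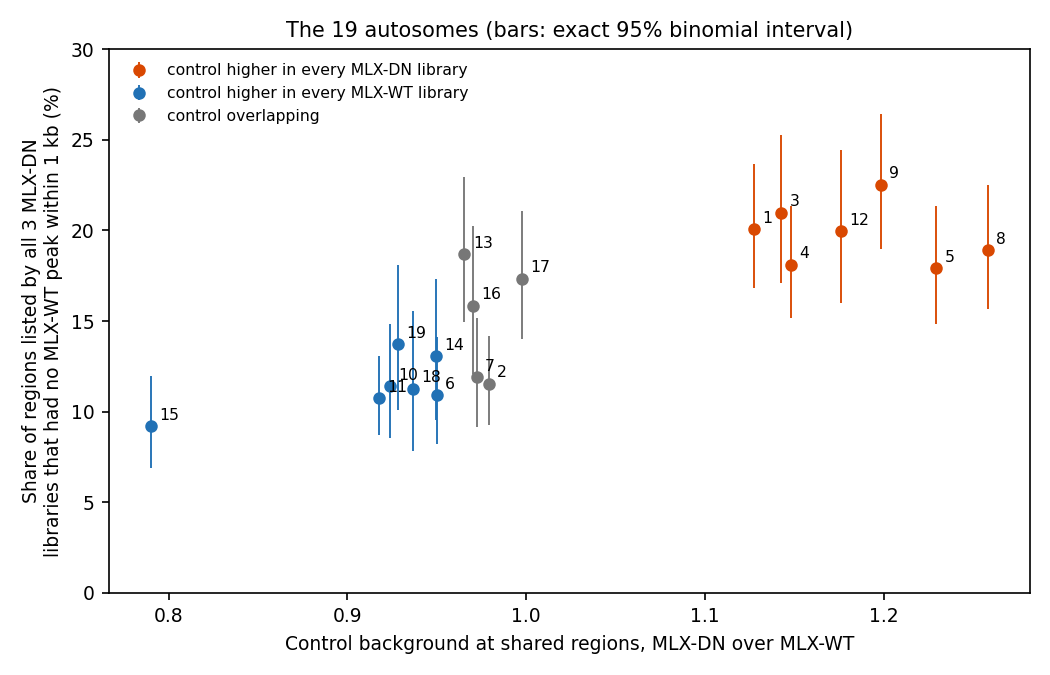
Share of regions common to the 3 MLX-DN lists that belonged to the 1407 (vertical axis, exact 95% binomial intervals) against the MLX-DN over MLX-WT ratio of control background at regions of all 6 libraries (horizontal axis), for the 19 autosomes, labelled by number. The 7 autosomes with a ratio of 1.13 or more have shares of 17.9% to 22.5%, and chromosome 15, with the lowest ratio, has 9.21%. Chromosomes 13 and 17, at ratios of 0.965 and 0.998, have 18.7% and 17.3%.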

How the data were processed

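Only the 6 H4ac peak lists were analysed; the input libraries were not analysed on their own. Per the submitters' processing notes the build is mm9, and the tools, named without roles, include the peak caller MACS2 2.0.9, the aligner BWA 0.5.9-r26 and Picard 1.65. Peaks were called per library. The deposited columns give, per peak, the authors' fold (ratio of ChIP to background), −log10 p and −log10 q, a score made from the −log10 q, and the summit.

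Reads were recovered from the deposited fold and −log10 p: fold = (ks + 1)/(b + 1), with k whole ChIP reads at the summit, s the library's scale factor and b the control background, and p the Poisson probability of more than ks reads at mean b. For every library 1 factor brought all peaks to whole reads (tolerance 0.001 on the −log10 p). The smallest b in a list was taken as the genome-wide control level, and divided by s as the ChIP depth: 3.30 to 3.90 reads at an average position. Absolute read totals are unknown. The recovery and the region rule were tested on simulated data. The control behind each list is not stated.

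Members and lists were chosen with earlier results of these data known. Named regions are the 10 members whose lowest percentile of −log10 q over the MLX-DN lists is highest, the 5 widest, the 3 with most members within 50 kb and the 3 nearest the 1000 bp limit on each side. The planned gene lists and the share near annotated starts were not run, since no mm9 annotation was used. No statistical test was made: every measure comes from the contrast of the rule, and 3 libraries against 3 cannot go below an exact p of 0.10. Shares carry exact 95% binomial intervals. Alternatives are listed in the closing section. Python 3.11.15, pandas 2.3.3 and SciPy 1.17.1 were used.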

Additional observations from a re-analysis of the deposited data

How the results depend on the processing

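With a replicate block the log2 difference in surrounding peak density is 0.42, the same by construction in a balanced design, and no test was made either way. The number of regions (1407) became 1002 at −log10 q of at least 5, 186 in lists of equal length, 833 with a required cover of 50% and 343 on the 5 autosomes of overlapping control background (chosen after seeing the data), each partly by construction. With 1 library left out it ran from 1511 to 2779, partly by construction, since a condition of the rule then falls away. It was 1309 for peaks with a −log10 p of at least 5 at equal depth, 1365 with peaks within 500 bp joined, and 1603, 1277 and 1102 with the distance to MLX-WT peaks set to 500, 2000 and 5000 bp. Under that joint change of p and depth 1270 of the 1407 were found again, and at −log10 q of at least 5 this held for 560. The median width (666 bp) was 766 bp at −log10 q of at least 5 and 921 bp in lists of equal length, and 518 to 684 bp with 1 library left out. The median of the lowest fold (3.24) was 3.70 and 4.28 in the first pair of settings and 3.21 to 3.45 with 1 library left out. The log2 difference in surrounding density (0.42) was 0.53 at −log10 q of at least 5, 0.57 in lists of equal length, 0.55 at 2 to 5 kb, 0.37 at 2 to 20 kb, 0.63 on the 5 autosomes and 0.40 to 0.45 with 1 library left out. No cause of these shifts was tested beyond the construction named. The share near annotated starts was not run. The smallest listed peak had 13 ChIP reads at its summit, and in MLX-WT replicates 1, 2 and 3 the smallest had 16, 14 and 13. The reads needed rise with the control background. At that of the 1407 regions in MLX-DN, a median of 19, 20 and 17 reads was needed in these MLX-WT lists. Acetylation below such thresholds could not be detected.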
